A study of Rattus norvegicus with 60 samples.

Results

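Nr4a1, Nr4a2, Nr4a3 and Arc are activity-regulated genes of the forebrain, and their mRNA was followed in the frontal cortex of rats given a pyrethroid insecticide. The genes were taken from the platform annotation of the Affymetrix rat expression array by their symbols, and 7 of the 31042 probe sets carried 1 of these symbols alone: 1 for Nr4a1, 2 for Nr4a2, 3 for Nr4a3 and 1 for Arc. They cover 4 of the 14217 genes that were named by at least 1 probe set, and no probe set joined a member with another symbol. The 4 genes were chosen by their dose contrasts in these same arrays, so every contrast between dose groups is given as a description and supports nothing on its own. Measures that this choice did not use directly are the spread between rats of one dose and the relations between genes across those rats. They are not fully independent of it, since the contrasts rest on the same rats, vehicle included. Every one of the 7 probe sets entered the fits, since no filter on dim probe sets was set.

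Male Long-Evans rats of postnatal day 62 to 64, housed 2 per cage, received 1 oral gavage of 1 mL/kg. The 7 groups were corn oil vehicle (12 rats), deltamethrin at 0.3, 1 or 3 mg/kg (8 rats each) and permethrin at 1, 10 or 100 mg/kg (8 rats each), and corn oil was the vehicle of all of them. Frontal cortex was taken 6 h later, and the RNA of each of the 60 rats was measured on 1 array. Deltamethrin carries an α-cyano group, which permethrin lacks, and both prolong the opening of voltage-sensitive sodium channels. The labels name no day, cage or cohort. Whether fewer cells or less RNA per cell lies behind a lower level cannot be told apart in tissue RNA.

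The 3 Nr4a genes encode orphan nuclear receptors (NUR77, NURR1 and NOR1), transcription factors that are not known to need a ligand and that bind DNA as monomers or dimers, in part with retinoid X receptors. Neuronal firing and calcium entry induce them within minutes to an hour, through CREB and its coactivators, MEF2 and serum response factor, and their mRNA is short-lived. Arc encodes a cytoskeleton-associated protein whose mRNA travels to active dendrites. There it acts with endophilin and dynamin in the internalization of AMPA receptors and is needed for lasting synaptic plasticity. Nr4a2 is also known for its role in midbrain dopamine neurons and marks deep cortical layers and the claustrum.

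The DNA before the transcription start was examined for Nr4a1 and Nr4a2. These sequences are shown because cAMP response elements (CRE) are the best known route by which firing reaches the Nr4a genes. Promoters of Nr4a3 and Arc were not analysed here. Junb and Dusp1 are shown with them because, as described further on, they followed Nr4a1 and Arc most closely between rats. The sequences are the 250 bases before the RefSeq start in the GRCr8 build, written 5′ to 3′ along the gene. Capitals mark matches, on either strand, to the CRE core (TGACG, or CGTCA on the other strand), the full CRE (TGACGTCA, which contains CRE cores), the EGR site (GCGGGGGCG) and the TATA motif (TATAAA).
Nr4a1, chr7:134259888-134260137, plus strand: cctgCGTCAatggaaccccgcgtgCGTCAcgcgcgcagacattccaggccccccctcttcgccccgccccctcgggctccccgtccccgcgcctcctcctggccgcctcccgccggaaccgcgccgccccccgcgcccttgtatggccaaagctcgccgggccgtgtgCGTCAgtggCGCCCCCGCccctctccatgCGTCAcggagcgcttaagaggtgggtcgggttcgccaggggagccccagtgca
Nr4a2, chr3:62104888-62105137, minus strand: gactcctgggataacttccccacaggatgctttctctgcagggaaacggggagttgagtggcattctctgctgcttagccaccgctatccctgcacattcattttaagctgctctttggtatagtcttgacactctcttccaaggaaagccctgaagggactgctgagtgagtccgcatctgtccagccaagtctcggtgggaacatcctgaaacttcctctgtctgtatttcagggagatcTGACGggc
Junb, chr19:40080876-40081125, plus strand: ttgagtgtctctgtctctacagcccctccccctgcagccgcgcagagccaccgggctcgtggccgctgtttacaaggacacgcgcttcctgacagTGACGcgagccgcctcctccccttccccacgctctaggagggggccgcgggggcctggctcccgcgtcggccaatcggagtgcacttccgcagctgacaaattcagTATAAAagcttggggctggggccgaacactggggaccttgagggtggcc
Dusp1, chr10:17184603-17184852, plus strand: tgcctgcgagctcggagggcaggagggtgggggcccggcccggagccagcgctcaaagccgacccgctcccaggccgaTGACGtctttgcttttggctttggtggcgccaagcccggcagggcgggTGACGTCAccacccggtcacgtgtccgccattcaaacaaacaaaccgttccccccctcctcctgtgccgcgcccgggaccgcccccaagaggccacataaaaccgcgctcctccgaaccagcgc

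The Nr4a1 sequence held 4 CRE cores, 2 of them within 82 bases of the start, and 1 EGR site between them. Of the 33469 promoters of the same length, 18.2% held at least 1 CRE core and 0.173% held 4 or more. Dusp1 held 3 CRE cores, 2 of which form a full CRE, a motif found in 1.59% of all promoters. Nr4a2 and Junb held 1 CRE core each, and Junb also a TATA motif, which 12.9% of promoters hold. An EGR site was found in 2.45% of promoters. The CArG box (serum response factor, 1.5% of promoters) and the NR4A element (AAAGGTCA, 1.24%) had no match in these 4 sequences. Further annotated starts of Nr4a1 and Nr4a2 lie upstream, by 12985 and 11039 bases, so that other promoters of these genes were not examined. A match is a run of letters and not a measured site.

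The deposited values are log2 values made by the authors with RMA, a method that removes background signal, brings the arrays to one distribution and fits 1 value per probe set and array, so levels of different probe sets are not set against each other here. Array medians lay between 7.07 and 7.20, and precision is limited by the number of rats. The arrays did not form 1 cluster. A split on the first principal component, which held 58.0% of the variance, gave array groups of 46 and 14 arrays. A split on the first 2 components, chosen after seeing the data, gave array set A (36 arrays: vehicle replicates 7 to 12 and replicates 4 to 8 of each dose) and array set B (24 arrays: vehicle replicates 1 to 6 and replicates 1 to 3 of each dose). In each group these numbers equal the sizes of the cohorts that the study combined, but the labels name no cohort. Both splits divide the same 60 arrays. All of the 14 arrays lie in set B, and the 46 hold all of set A and the rest of set B. Markers of cortical excitatory neurons (6 of 7 listed genes measured) had a mean log2 level between 10.23 and 10.98 on every array. Markers of striatal neurons (8 of 9 measured) ranged from 8.47 to 10.3 and those of choroid plexus (3 of 4 measured) from 6.62 to 9.42 over the 60 arrays (ranges of 1.85 and 2.80, against 0.75 for excitatory neurons). Th and Slc6a3, which define midbrain dopamine neurons, had a mean between 6.84 and 7.68.

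Arc and Nr4a1 varied more between vehicle rats than nearly all other transcripts. Arc had an SD of 0.94 log2 units over the 12 vehicle rats, which only 21 of the 31042 probe sets exceeded, and its lowest and highest vehicle rats lay 7.44-fold apart. Nr4a1 had an SD of 0.59, larger than that of 98.7% of probe sets, and a 3.93-fold range. The spread differed between the array sets. Over the 6 vehicle rats of set A the SD was 0.32 for Arc and 0.21 for Nr4a1, and over the 6 of set B it was 1.17 and 0.78. Nr4a2 (SD 0.42) and Nr4a3 (SD 0.36) varied more than 92.6% and 88.3% of probe sets, and the median SD over all probe sets was 0.18. Further probe sets of the receptors had vehicle SDs of 0.37 (Nr4a2), 0.14 and 0.17 (Nr4a3).

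Nr4a1, the receptor NUR77, was measured by 1386935_at. In the 12 vehicle rats it had a lowest log2 value of 8.85, a median of 9.32 and a highest of 10.82, with a mean of 9.49 ± 0.59 (SD, n = 12). Vehicle replicates 2, 5 and 6 stood at 10.01, 10.28 and 10.82, and the other 9 lay between 8.85 and 9.47. These 3 high rats all belonged to array set B.

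After deltamethrin the lowest, median and highest Nr4a1 values were 8.69, 9.25 and 10.28 at 0.3 mg/kg, 8.76, 9.16 and 9.48 at 1 mg/kg, and 8.74, 8.99 and 9.50 at 3 mg/kg (n = 8 each). Of the 8 rats at each dose, 7, 8 and 7 lay below the vehicle mean. The ranges overlapped that of vehicle at every dose, and 1 rat at 0.3 mg/kg, replicate 7, reached the level of the high vehicle rats. The difference from vehicle at 3 mg/kg was -0.46 ± 0.18 (SE, 95% interval -0.81 to -0.10), and rank 83 of all 31042 probe sets by p. Its adjusted p in limma was 1.0. Within the array sets the mean difference at this dose was -0.37 in A and -0.46 in B. Without vehicle replicate 6 it was -0.33. The slope over deltamethrin dose was -0.14 ± 0.06 log2 units per mg/kg.

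After permethrin Nr4a1 was low at the 2 lower doses and near vehicle at the highest. The lowest, median and highest values were 8.56, 9.03 and 9.28 at 1 mg/kg, 8.76, 9.09 and 9.68 at 10 mg/kg, and 8.97, 9.34 and 10.24 at 100 mg/kg (n = 8 each). All 8 rats at 1 mg/kg lay below the vehicle median, and 6 of the 8 fell within the range of the vehicle rats. The difference at 1 mg/kg was -0.51 ± 0.18 (SE, 95% interval -0.86 to -0.16), rank 9 of all probe sets by p, with a limma adjusted p of 1.0. The median at 1 mg/kg differed from the vehicle median by less, -0.29. Within the array sets the mean difference was -0.39 in A and -0.57 in B, which held the high vehicle rats. At 100 mg/kg the difference was -0.03 ± 0.18 (SE), with 5 of 8 rats above the vehicle median. This last value had no settled sign, since it was 0.09 without vehicle replicate 6 and 0.07 in a robust regression.

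**Figure D1:**
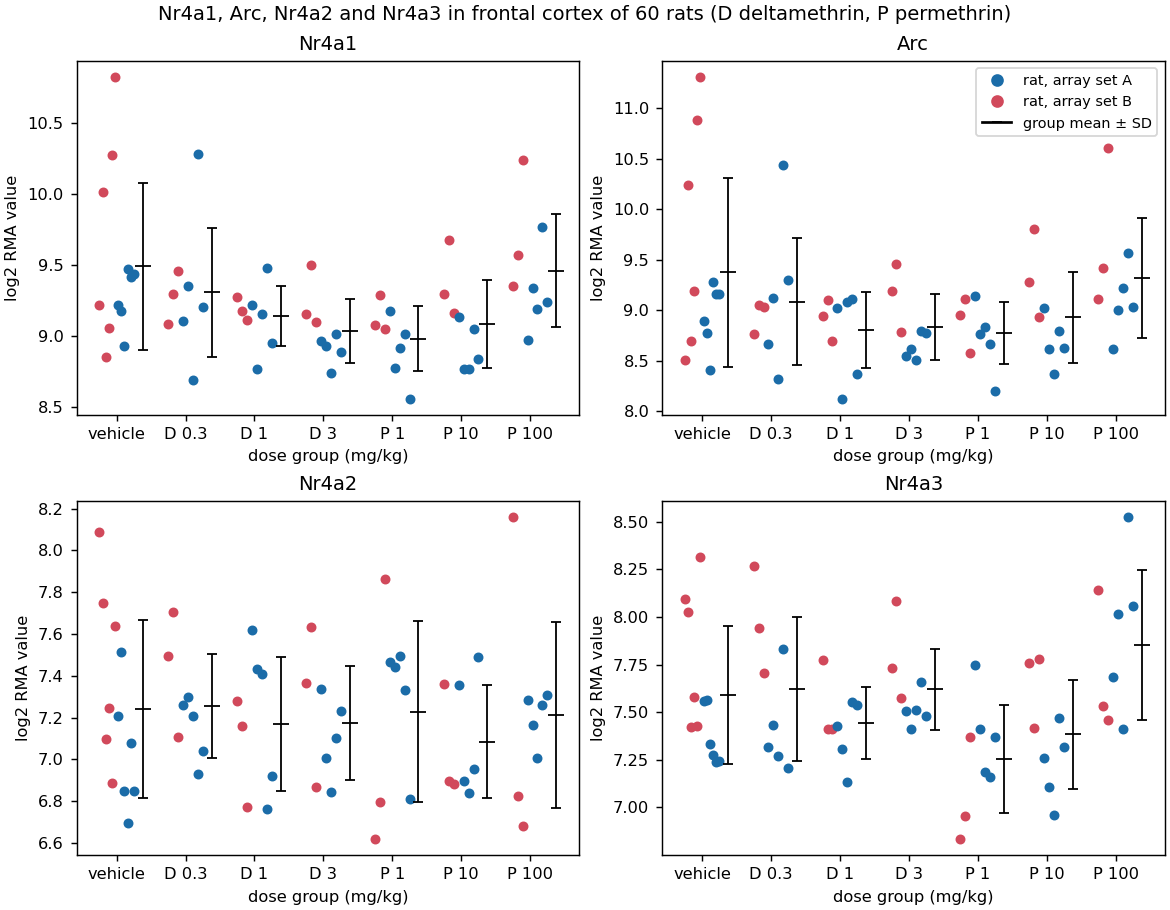
Log2 RMA values of Nr4a1, Arc, Nr4a2 and Nr4a3 (vertical axes) in each of the 60 rats by dose group (horizontal axes, D deltamethrin and P permethrin in mg/kg), coloured by array set, with group mean and SD in black. Vehicle replicates 2, 5 and 6 lie above the other vehicle rats in Nr4a1 (10.01 to 10.82) and Arc (10.24 to 11.31), and the dose groups overlap with vehicle in all 4 genes.

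Arc (1387068_at) had a lowest vehicle value of 8.41, a median of 9.16 and a highest of 11.31, with a mean of 9.37 ± 0.94 (SD, n = 12). Vehicle replicates 2, 5 and 6 were again the high ones, at 10.24, 10.88 and 11.31, and the other 9 lay between 8.41 and 9.28. The rats that were high in Nr4a1 were thus those that were high in Arc.

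Deltamethrin groups had lowest, median and highest Arc values of 8.32, 9.04 and 10.43 at 0.3 mg/kg, of 8.12, 8.98 and 9.11 at 1 mg/kg, and of 8.50, 8.78 and 9.45 at 3 mg/kg. In permethrin groups they were 8.20, 8.79 and 9.14 at 1 mg/kg, 8.36, 8.86 and 9.80 at 10 mg/kg, and 8.62, 9.17 and 10.60 at 100 mg/kg (n = 8 each). No dose group stood clear of vehicle. All 8 rats at 1 mg/kg of either compound lay below the vehicle median, and rats as high as vehicle replicate 2 occurred only at 0.3 mg/kg deltamethrin (replicate 7) and 100 mg/kg permethrin (replicate 3), 1 each.

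The Arc difference from vehicle was -0.54 ± 0.26 (SE, 95% interval -1.07 to -0.01) at 3 mg/kg deltamethrin and -0.60 ± 0.26 (95% interval -1.13 to -0.07) at 1 mg/kg permethrin, each with a limma adjusted p of 1.0. At 100 mg/kg permethrin it was -0.06 ± 0.26 (SE). The first 2 differences were larger in array set B, which held the 3 high vehicle rats (-0.66 and -0.93), than in set A (-0.30 and -0.23). Without vehicle replicate 6 the difference at 3 mg/kg deltamethrin was -0.37. Medians, which the high rats do not pull, differed from the vehicle median by -0.38 and -0.37. A robust regression gave -0.28 at 3 mg/kg deltamethrin and -0.31 at 1 mg/kg permethrin. The slope over deltamethrin dose was -0.16 ± 0.09 log2 units per mg/kg.

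Nr4a2, the receptor NURR1, was level over the doses. In 1369007_at the 12 vehicle rats had a lowest value of 6.70, a median of 7.15 and a highest of 8.09, with a mean of 7.24 ± 0.42 (SD, n = 12). Group means of the 6 doses lay between 7.08 and 7.26, and the lowest and highest single rats of all dose groups were 6.62 and 8.16. For both Nr4a2 probe sets the 95% interval of all 12 comparisons fitted included 0. The difference from vehicle was -0.07 ± 0.16 (SE, 95% interval -0.39 to 0.26) at 3 mg/kg deltamethrin and -0.03 ± 0.16 (95% interval -0.35 to 0.29) at 100 mg/kg permethrin. Its other probe set, 1387410_at, gave -0.11 and -0.14. Within array set A the mean of 1369007_at was above vehicle at all 6 doses (0.07 to 0.28), and within B it was below at all 6 (-0.40 to -0.02). In 1387410_at both signs occurred in each set, with differences from -0.05 to 0.27 in A and from -0.43 to 0.08 in B. All differences within a set share the same 6 vehicle rats. Between rats of one dose the Pearson r of the 2 probe sets was 0.75 in array set A (n = 36) and 0.93 in B (n = 24), and 0.87 and 0.47 in the array groups of 46 and 14, given as a description.

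High Nr4a2 rats were not the high Nr4a1 rats throughout. Among vehicle rats, replicates 1, 2 and 6 were the highest in Nr4a2 (8.09, 7.75 and 7.64). Vehicle replicate 5, which was 10.28 in Nr4a1 and 10.88 in Arc, had 6.89 in Nr4a2, and replicate 1 was below the vehicle median in Nr4a1 (9.22) and Arc (8.50).

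Nr4a3, the receptor NOR1, was measured by 3 probe sets, of which 1369067_at and 1393389_at followed each other between rats (r = 0.65 in array set A, 0.64 in B, and 0.70 and 0.51 in the array groups of 46 and 14). The last, 1369217_at, had the lowest mean (6.03) and tracked neither of them, with r between 0.02 and 0.26 in the array sets and between -0.42 and 0.20 in the array groups. It is given here by its range alone, 5.79 to 6.39 over the 60 rats, and no dose moved it by more than 0.09 from vehicle.

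In 1369067_at vehicle rats had a lowest value of 7.24, a median of 7.49 and a highest of 8.31 (mean 7.59 ± 0.36, SD, n = 12). Permethrin groups had lowest, median and highest values of 6.84, 7.28 and 7.75 at 1 mg/kg, 6.96, 7.37 and 7.78 at 10 mg/kg, and 7.41, 7.85 and 8.52 at 100 mg/kg (n = 8 each). At 1 mg/kg 7 of 8 rats lay below the vehicle median and at 100 mg/kg 6 of 8 lay above it, with overlap in both cases. Deltamethrin groups had medians of 7.57, 7.42 and 7.54 at 0.3, 1 and 3 mg/kg, and values between 7.13 and 8.27.

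The Nr4a3 difference from vehicle was -0.34 ± 0.14 (SE, 95% interval -0.62 to -0.05) at 1 mg/kg permethrin and 0.26 ± 0.14 (95% interval -0.02 to 0.55) at 100 mg/kg. At 3 mg/kg deltamethrin it was 0.03 ± 0.14. Limma's adjusted p was 1.0 for each. The slope over permethrin dose was 0.0042 ± 0.0014 log2 units per mg/kg, rank 34 of all probe sets by p, and 1393389_at had rank 15 with a slope of 0.0022 ± 0.00064. Both adjusted p-values of the slopes were 1.0 in limma. The array sets differed in Nr4a3, which was not tested. At 1 mg/kg permethrin the mean difference was 0.00 in array set A and -0.76 in B, and at 100 mg/kg it was 0.57 in A and -0.10 in B. Replicate 7 (8.52) held the highest value at 100 mg/kg, and without it the difference was 0.17.

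**Figure D2:**
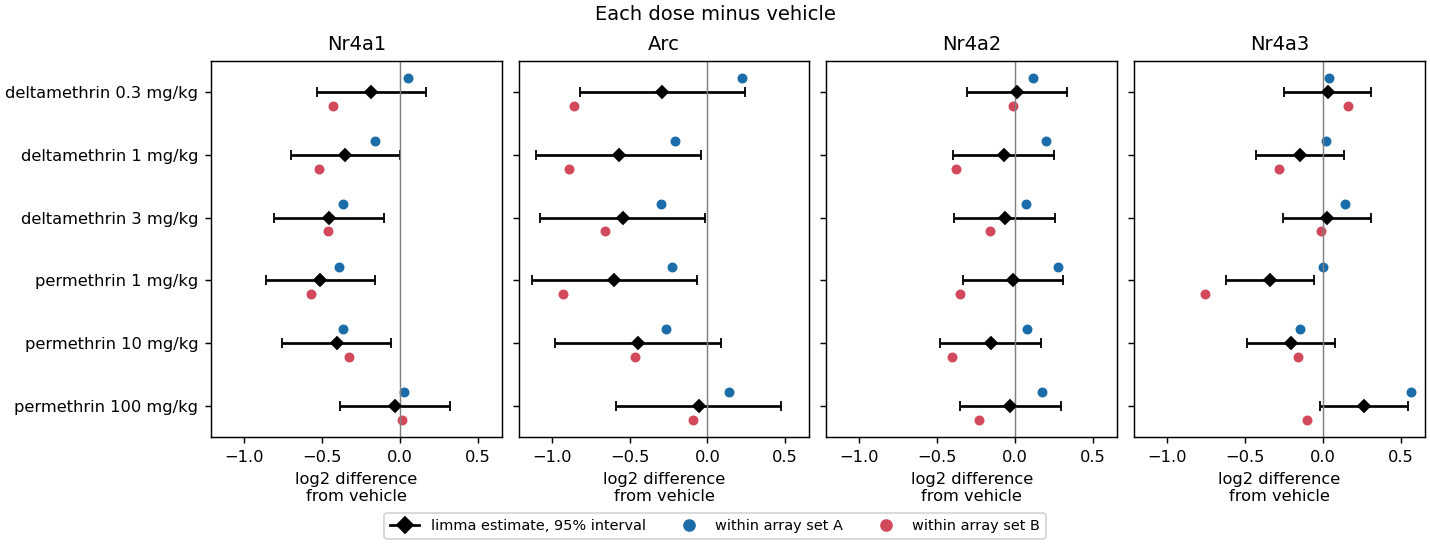
Difference from vehicle in log2 units (horizontal axes) for each dose (vertical axis) of the 4 genes, as the limma estimate with its 95% interval (black) and as the difference of means within array set A (36 arrays) and B (24 arrays). Nr4a1 lies close in both sets at 3 mg/kg deltamethrin (-0.37 and -0.46) and at 10 mg/kg permethrin (-0.36 and -0.33). It lies further apart at 0.3 mg/kg (0.05 in A and -0.43 in B) and 1 mg/kg deltamethrin (-0.16 and -0.52). The differences of Arc are larger in size in set B at 5 of 6 doses, and those of Nr4a3 at 1 and 100 mg/kg permethrin are seen in 1 set each.

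Read against all probe sets, the members passed no test after adjustment. The study listed 1369067_at of Nr4a3 as responsive to permethrin dose by another criterion. There a regression screen came first, and an analysis of variance was adjusted over the screened probe sets alone. With Benjamini-Hochberg adjustment over 31042 probe sets, 0 of the 7 members and 0 probe sets in all (0%) passed an adjusted p of 0.05 in limma in each of the 12 comparisons: 6 doses against vehicle, 4 between compounds and 2 slopes. At an unadjusted p under 0.05 in the same fit, 0 of 7 members passed at 0.3 mg/kg deltamethrin (0.751% of all probe sets), 1 at 1 mg/kg (2.24%) and 2 at 3 mg/kg (1.36%, of which 0.751% higher and 0.606% lower). Both of the latter, Nr4a1 and Arc, were lower. For permethrin, 3 of 7 passed at 1 mg/kg (1.18%), 1 at 10 mg/kg (3.48%) and 1 at 100 mg/kg (1.24%, of which 0.883% higher and 0.354% lower), the last being 1393389_at of Nr4a3, which was higher by 0.16 ± 0.06 (SE). The slope passed in 1 of 7 over deltamethrin dose (1.36%) and in 2 of 7 over permethrin dose (0.696%). Because the members were chosen by these contrasts, nothing is read from shares above the background. The comparisons with vehicle share the same 12 vehicle rats.

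Deltamethrin and permethrin were set against each other in 4 pairs of doses, with differences that do not use the vehicle mean but with errors and intervals from the spread pooled over all 7 groups, vehicle included: 1 mg/kg of both, the only dose in common, and the doses that the study matched by their effect on behaviour. At 1 mg/kg the compounds did not differ in any member at an unadjusted p (0 of 7, against 2.73% of all probe sets). The difference, deltamethrin minus permethrin, was 0.16 for Nr4a1 (95% interval -0.22 to 0.54), 0.03 for Arc (-0.55 to 0.61), -0.06 for Nr4a2 (-0.41 to 0.29) and 0.19 for Nr4a3 (-0.12 to 0.50). These intervals are wide enough to hold changes as large as those seen from vehicle.

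At the highest doses, 3 mg/kg deltamethrin minus 100 mg/kg permethrin, Nr4a1 differed by -0.42 ± 0.19 (SE, 95% interval -0.81 to -0.04), Arc by -0.49 ± 0.29 (-1.07 to 0.09), Nr4a3 by -0.23 ± 0.15 (-0.54 to 0.08) and Nr4a2 by -0.04 ± 0.18 (-0.39 to 0.32). Limma's adjusted p was 1.0 for all of them, and 1 of 7 members passed unadjusted (0.802% of all). Without permethrin replicate 3, the high rat of that group, the Nr4a1 difference was -0.31 and the Arc difference -0.30. For 0.3 mg/kg deltamethrin minus 1 mg/kg permethrin 1 of 7 passed unadjusted (2.41% of all), and for 1 mg/kg minus 10 mg/kg 0 of 7 (1.02%). The doses of these 3 pairs differ in mg/kg, and those of the highest pair also in behavioural effect level.

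Across rats of the same dose, Arc and Nr4a1 rose and fell together. After the mean of the dose group within the array group was taken from each value, Pearson r was 0.95 in the 46 arrays (Spearman rho 0.82) and 0.98 in the 14 arrays (rho 0.94). The permutation p was 1e-05 for all 4, the smallest that 100000 resamples can give, and 0.00012 after Benjamini-Hochberg adjustment over 36 relations. Those of the 14 arrays are too small, because residuals within very small dose groups are not independent. Without the 2 arrays farthest from the median r was 0.89 (n = 44) and 0.95 (n = 12). Within array sets A and B r was 0.94 and 0.95 (rho 0.87 and 0.96). Of 14216 other genes, Arc was the one most like Nr4a1, and Nr4a1 the one most like Arc.

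**Figure D3:**
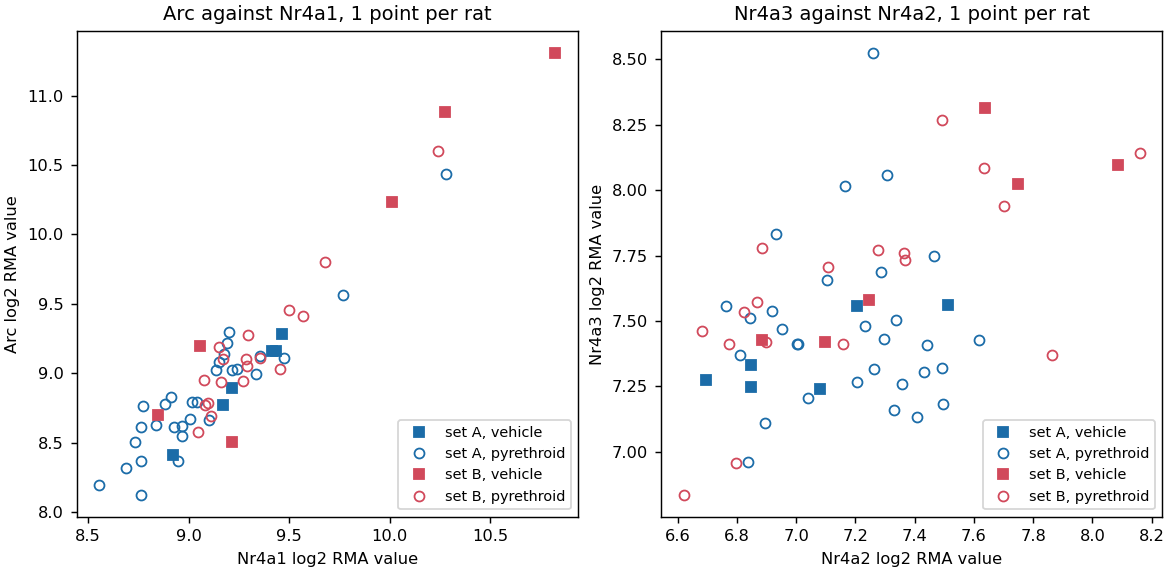
Arc against Nr4a1 (left) and Nr4a3 against Nr4a2 (right), log2 RMA values with 1 point per rat, filled squares for the 12 vehicle rats and open circles for the 48 pyrethroid rats, coloured by array set. Arc and Nr4a1 lie along 1 line that vehicle and pyrethroid rats share, while Nr4a2 and Nr4a3 rise together mainly in set B (r = 0.83, against 0.10 in set A).

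The receptors were less tied to each other. Nr4a2 and Nr4a3 had r of 0.45 in the 46 arrays (permutation p = 0.00197, adjusted p = 0.0118) and 0.63 in the 14 arrays (permutation p = 0.017, adjusted p = 0.0613). The first did not pass by Spearman (rho = 0.37, adjusted p = 0.0573, permutation) nor without its 2 farthest arrays (r = 0.38). Within the array sets r was 0.83 in B (adjusted p = 0.00012, permutation) and 0.10 in A (adjusted p = 0.811). Nr4a1 and Nr4a3 had r of 0.62 in the 46 arrays (adjusted p = 0.00012, permutation) and -0.25 in the 14 (adjusted p = 0.53), with r of 0.50 in the 46 without their 2 farthest arrays. In array set A their r was 0.54, which did not pass by Spearman (rho = 0.40, adjusted p = 0.129, permutation), and in B 0.16. Nr4a3 and Arc had r of 0.51 and -0.40, of which the first passed (adjusted p = 0.00245, permutation), though by Spearman it did not (rho = 0.34, adjusted p = 0.094), nor without its 2 farthest arrays (r = 0.32). Nr4a2 was related to neither Nr4a1 (r = 0.17 and -0.40) nor Arc (r = 0.13 and -0.44) at an adjusted p of 0.05. Whether r differed between array groups or sets was not tested.

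**Figure D4:**
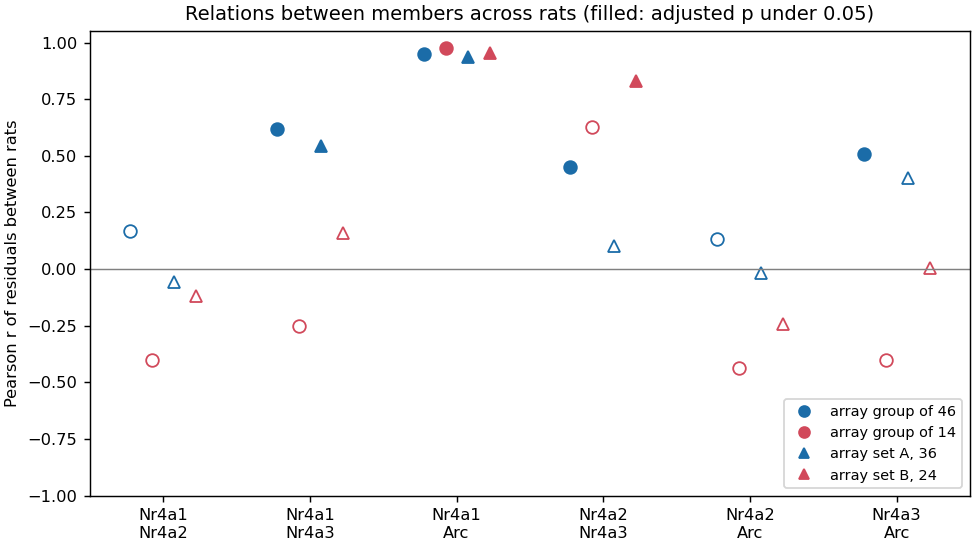
Pearson r of residuals between rats (vertical axis) for the 6 pairs of genes (horizontal axis), in the array groups of 46 and 14 arrays (circles) and in array sets A and B of 36 and 24 arrays (triangles), with filled symbols at an adjusted p under 0.05. Nr4a1 with Arc is the pair with r above 0.9 in all 4 sets of arrays, which overlap, as they are 2 splits of the same rats.

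In all, 36 relations were computed in the array groups and again in the array sets: 6 pairs of genes, and each gene with the mean of 3 marker lists, in 2 sets of arrays each. Of the 12 relations between members, 5 passed in the array groups and 4 in the array sets, all positive. By Spearman 3 passed in each. Residuals of the 14 arrays come from dose groups of 1 to 3 rats, so that they are not independent and their p-values are too small. The p-values of array set B, with 3 rats per dose, share this to a lesser degree, and those of the larger sets less still.

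Markers of other tissue moved little with the members in the larger set of arrays. In the 46 arrays no relation with the means of striatal (8 genes), claustrum and layer 6b (8 genes) or oligodendrocyte (6 genes) markers passed, and for Nr4a1 and Arc r lay between -0.30 and 0.07. In the 14 arrays 4 relations passed: Nr4a3 with claustrum and layer 6b (r = -0.88, adjusted p = 0.00036, permutation), Arc (r = -0.70, adjusted p = 0.0225) and Nr4a1 (r = -0.67, adjusted p = 0.0338) with oligodendrocytes, and Nr4a2 with striatal neurons (r = 0.70, adjusted p = 0.0225). Without the 2 farthest arrays only the first of these held (r = -0.79), and with dose means left in, as deposited, its r was 0.401. None of the 4 passed in an array set. There 1 relation passed, that of Nr4a2 with claustrum and layer 6b in set A (r = 0.56, adjusted p = 0.00351, permutation). Nr4a2 is itself known as a marker of claustrum and deep layers.

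Genes most like each member were ranked by the lower of the 2 array group correlations (given with no p; all share the same arrays). After Arc, those most like Nr4a1 were Junb (0.87), a subunit of the AP-1 transcription factor, Dusp1 (0.77), a phosphatase of MAP kinases, Ppp1r15a (0.57), which directs protein phosphatase 1 in the stress response, and Dusp6 (0.56), a phosphatase of ERK. After Nr4a1, those most like Arc were Junb (0.89), Dusp1 (0.75), Ccn1 (0.58), a secreted matrix protein, and Ier2 (0.57), an immediate early gene. In the array sets 4 of the 5 genes recurred for Nr4a1 and 4 of 5 for Arc, Junb and Dusp1 among them for both.

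Likeness was lower for the other receptors. For Nr4a2 it was highest with Zfp133 (0.65), Polr3f (0.53), Bdnf (0.51), Ube3al1 (0.51) and Bbx (0.51), and for Nr4a3 with Robo3 (0.55), C5h1orf216 (0.52), Arhgef3 (0.52), Fam107a (0.51) and Irs2 (0.51). Of these 10 genes 0 recurred in the array sets. There the gene most like Nr4a3 was Dusp6 (0.50), and Ptgs2, the inducible cyclooxygenase, had 0.43. By array groups Nr4a3 was at rank 16 for Nr4a2, and Nr4a2 at rank 26 for Nr4a3.

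Other immediate early transcription factors (21 of 23 listed genes measured) were described by direction at the highest doses. At 3 mg/kg deltamethrin 8 were higher and 13 lower, with a median difference of -0.02 log2 units against -0.01 over all probe sets. Unadjusted, Fosb passed as higher (0.45 ± 0.18, SE), and Klf4 (-0.37 ± 0.12) and Klf10 (-0.26 ± 0.10) as lower. Of all probe sets, 0.751% passed as higher and 0.606% as lower at this dose. Junb, which followed Nr4a1 between rats, differed by -0.24 ± 0.16. At 100 mg/kg permethrin 15 were higher and 6 lower (median 0.05 against 0.01). Fosb (0.52 ± 0.18), Egr4 (0.32 ± 0.13) and Egr2 (0.53 ± 0.23) passed unadjusted as higher, as did 0.883% of all probe sets. None passed after adjustment in limma. Between the compounds at these doses 3 were higher and 18 lower with deltamethrin (median -0.10 against -0.01), and 4 passed unadjusted as lower. Of all probe sets 0.802% passed there in either direction. These doses were not matched in behavioural effect. Egr1 was 0.271 ± 0.145 (SE) above vehicle at 100 mg/kg permethrin and did not pass unadjusted. The study listed Egr1 and a c-fos probe set other than the one used here as rising with permethrin dose. By quantitative RT-PCR in other rats at these doses, both rose at 3 h. At 6 h they were at control level with deltamethrin and still raised with permethrin. In a further cohort permethrin changed neither at 6 h. This list and those below were chosen with earlier results of these data known, so nothing is read from their counts.

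Activity-regulated effector genes (27 of 30 listed measured) were 14 higher and 13 lower at 3 mg/kg deltamethrin, and 24 higher and 3 lower at 100 mg/kg permethrin (median 0.04 against 0.01). Crh, corticotropin-releasing hormone, was 0.38 ± 0.10 (SE) and 0.39 ± 0.10 above vehicle, and Bdnf, the neurotrophin, 0.23 ± 0.14 and 0.46 ± 0.14. Dusp1 differed by -0.28 ± 0.17 at 3 mg/kg deltamethrin. Of these, Crh at both doses and Bdnf at 100 mg/kg permethrin passed unadjusted and none after adjustment in limma. Of all probe sets, 0.751% passed unadjusted as higher at 3 mg/kg deltamethrin and 0.883% at 100 mg/kg permethrin. In other rats the study found no effect on Bdnf by quantitative RT-PCR. Those values lay close to a second Bdnf probe set that the study did not call dose-responsive.

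Of 14 measured genes upstream of immediate early genes (CREB, SRF and MEF2 factors and their kinases), 11 NR4A partners and corepressors, 6 genes that NR4A2 drives in dopamine neurons and 13 synaptic partners of Arc, none passed at either highest dose, also unadjusted. Each gene was judged by its probe set of highest mean alone. For Ret, among the 6 genes that NR4A2 drives, the study listed another probe set as rising with deltamethrin dose. Those with the lowest p at 3 mg/kg deltamethrin were Rps6ka2 (0.21 ± 0.11, SE), a kinase of CREB, Kdm1a (0.10 ± 0.05), a histone demethylase of the CoREST complex, Slc18a2 (-0.11 ± 0.06), the vesicular monoamine transporter, and Camk2b (0.06 ± 0.04), a kinase that binds Arc. Striatal markers were higher in 8 of 8 genes at 3 mg/kg deltamethrin, by a median of 0.14 (-0.01 over all probe sets), and in 2 of 8 at 100 mg/kg permethrin. Inhibitory neuron markers were higher in 7 of 7 at 3 mg/kg deltamethrin and in 5 of 7 at 100 mg/kg permethrin, and oligodendrocyte markers were higher in 1 of 6 and 0 of 6. Of these markers Pde10a alone passed unadjusted (0.21 ± 0.10, SE, at 3 mg/kg deltamethrin, where 0.751% of all probe sets passed as higher). Their part in the members' differences was not tested.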

How the data were processed

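The authors hybridized the RNA of each rat to 1 Affymetrix rat expression array and deposited 1 table of log2 values made with RMA, for 31042 probe sets and 60 arrays. The submitters' notes give no version of RMA. All columns matched a sample, and 0 were left unused. Arrays give no read depth. Groups came from the sample labels. Where a gene had several probe sets, the one of highest average value stood for it. The members and all gene lists were chosen with earlier results of these data known.

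Dose contrasts and slopes were fitted with limma 3.58.1 (R 4.3.3) and empirical Bayes moderation, with 1 fit of all 60 arrays for the contrasts and 36 arrays per compound for the slopes. P-values were adjusted by Benjamini-Hochberg over the whole table, with 0.05 as the threshold. Relations across rats used Pearson and Spearman correlations of residuals in Python 3.11.15 (numpy 2.4.6, scipy 1.17.1, pandas 2.3.3), with 100000 resamples, two-sided. SAM was written after the study's description, with 100 permutations of dose labels and q under 0.1. Figures were drawn with matplotlib 3.10.9. The limma, correlation and SAM steps were tested on simulated data. Genes were named as all member probe sets, at most 5 genes per list by p at each highest dose, and the 5 genes most like each member, not all of which are printed. Promoters and motif searches used RefSeq sequences of GRCr8, in which 2 of the 4 members had an entry. Each array is a separate rat, but cage mates are not named. The alternatives tried were blocks for replicate number, array group and array set, the first principal component as covariate, centred arrays, linear values, a filter on dim probe sets, other variance priors, robust regression, SAM and leaving out each array.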

Additional observations from a re-analysis of the deposited data

Results flagged for a closer look

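Dixon's test of the highest and lowest rat was run in the 42 groups of 8 rats (7 probe sets in 6 dose groups), and 5 groups held a rat that stood apart. The test finds about 1 in 20 such groups by chance. Each of the 5 was the highest rat of its group. Arc at 0.3 mg/kg deltamethrin stood apart in replicate 7, with a gap of 0.537 of the group's range. In Nr4a2, permethrin 100 mg/kg replicate 1 stood apart in both probe sets, with a gap of 0.576 of the range in 1369007_at and 0.629 in 1387410_at. In 1387410_at alone, replicate 2 stood apart at 0.3 mg/kg (0.55 of the range) and at 3 mg/kg deltamethrin (0.552). Vehicle, with 12 rats, was not tested this way.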

How the results depend on the processing

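Under the 192 combinations of comparison and alternative setting that were run, 0 of the member probe sets tested passed in each. The filter on dim probe sets left out at least 1369217_at of Nr4a3, which was thus not tested there. Of the printed gene values, 481 recomputed values gave 0 calls and 31 had another sign, 22 of them on leaving out 1 array. At 3 mg/kg deltamethrin Nr4a3 was -0.13 with the replicate block and -0.0606 in 1369217_at. At 1 mg/kg permethrin Nr4a3 was 6.99e-05 in 1369217_at. At 100 mg/kg permethrin Nr4a1 was 0.0057 with the array set as a block and 0.0737 by robust regression, Arc was 0.13 by robust regression, and Nr4a2 was 0.000549 with the first principal component as covariate. Between the highest doses Nr4a2 was 0.0281 by robust regression and 0.0364 in 1387410_at. Nr4a3 with claustrum and layer 6b in the 14 arrays had r of 0.401 with values as deposited. Leaving out each array in turn moved the difference at 3 mg/kg deltamethrin from -0.52 to -0.33 for Nr4a1, -0.63 to -0.37 for Arc, -0.13 to 0.00914 for Nr4a2 and -0.0367 to 0.0957 for Nr4a3. At 100 mg/kg permethrin these ranges were -0.14 to 0.0908, -0.24 to 0.12, -0.17 to 0.0467 and 0.17 to 0.33, and for Nr4a2 between the highest doses -0.11 to 0.0979. Of the 12 relations between members, 5 passed, and 3 by Spearman and without the 2 farthest arrays.

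Counts over all probe sets, which were 0 in each comparison, moved as follows. At 3 mg/kg deltamethrin 2 passed after blocking on array group, 5 with the first principal component, 1 with centred arrays, 2 on linear values, 1 without dim probe sets, 3 with the array set as a block and 3 by robust regression, and 0 to 2 when leaving out arrays. At 1 mg/kg 1 passed with the first principal component. For the deltamethrin slope 3 (array group), 6 (first principal component), 2 (linear values), 2 (without dim probe sets), 1 (intensity trend in the variance prior) and 4 (array set) passed, 11 by SAM, and 0 to 2 when leaving out arrays. For the permethrin slope 1 (array group), 4 (first principal component) and 1 (array set) passed, 1 without dim probe sets, 1 with the replicate block, 14 by SAM, and 0 to 1 when leaving out arrays. By SAM 0 members passed. The lowest member q was 0.147, for 1369067_at of Nr4a3 over permethrin dose, against a threshold of 0.1. The cause of these shifts was not tested. The labels do not say what a replicate number shares. Deviations of same-numbered rats had a mean r of 0.14 to 0.36 for the 8 numbers, against -0.0021 for different numbers, but single pairs went down to -0.82, so pairing was not settled. No dosed rat shares a number with vehicle replicates 9 to 12, so these rats do not enter the differences with the replicate block. Vehicle replicates 4 to 6 lie in array set B, and dosed rats of the same numbers in A. The block values are thus differences from other vehicle rats and no measure of pairing. With the replicate block no member passed. Nr4a2 was -0.25 at 3 mg/kg deltamethrin and -0.22 at 100 mg/kg permethrin. At these doses Arc was -0.73 and -0.24, and Nr4a3 at the latter 0.11. The number of rats limits the precision, and signal over background was not tested. Array set block, robust regression and relations within array sets were chosen after seeing the data.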
